A study of Homo sapiens with 27 samples.

Results

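The patterning genes of the optic stalk and forebrain described here were VAX1, VAX2, PAX2, FEZF1, FEZF1-AS1, FEZF2, EMX2, DLX1, and DLX2, which are 9 of the 44852 genes in the deposited count table. They were listed by symbol, and VAX1 and FEZF1-AS1 were chosen on their day 22 levels in LN523 against LN323 cultures, so that contrast is given below as values without a test. All 9 symbols matched 1 Ensembl identifier each.

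The libraries came from the H1 human embryonic stem cell line, an established pluripotent line, grown on 3 laminin coatings and taken at days 2, 22, and 32, with 3 libraries in each of the 9 groups. Laminins are basement membrane proteins built from an alpha, a beta, and a gamma chain, and their names give these chains. The coatings were LN523, LN323, and LN521, named by the leading isoform. GEO's labels list the first as LN523 with LN323, the second as LN323 alone, and the third as LN521 with LN323, whereas the methods of the study pair LN523 or LN323 with LN521 and use LN521 alone, so the partner isoform is not settled. Day 2 cells were labelled undifferentiated stem cells, and day 22 and day 32 cells photoreceptor progenitors. All cultures after day 2 had been directed to the neural lineage with CKI-7 and SB431542 and then kept in medium with BDNF, CNTF, retinoic acid, and DAPT. Total read counts ran from 25620624 to 47340990 per library, with a median of 39862487. Replicate number equals sequencing lane in the labels, and nothing in them says that replicates were separate cultures, so every p-value measures only the spread between these libraries, which may be technical.

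In the embryo, the eye field splits into the optic cup, which forms the retina, and the optic stalk, through which the optic nerve grows. VAX1, VAX2, and PAX2 are transcription factors of the stalk and the ventral cup, where they oppose the PAX6-led retinal programme. FEZF1 and FEZF2 are zinc finger repressors of the early forebrain, EMX2 is a homeodomain factor of the dorsal telencephalon, and DLX1 and DLX2 are homeodomain factors of the ventral forebrain that also act in retinal ganglion and interneuron precursors. FEZF1-AS1 is a long non-coding RNA transcribed from the opposite strand to FEZF1.

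Marker genes of the labelled cell states were present. The 5 pluripotency markers summed to between 4959 and 8250 CPM at day 2, 23.7 and 370 CPM at day 22, and 5.60 and 52.0 CPM at day 32. CPM is the read count per 1000000 reads of the library after TMM scaling. The 7 eye field and neural retina markers summed to between 73.0 and 175 CPM at day 2, 928 and 1992 CPM at day 22, and 960 and 2293 CPM at day 32. The 6 photoreceptor markers reached 6.29 to 16.0 CPM at day 22 and 7.43 to 91.8 CPM at day 32, and PDE6H was at 0 in all 3 LN523 libraries of day 22. These are bulk libraries, in which fewer cells of a type and less RNA per cell cannot be told apart.

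Of the 8 coding members, 6 (VAX2, PAX2, FEZF2, EMX2, DLX1, and DLX2) went from near 0 at day 2 to detectable in all libraries of days 22 and 32. The pair at FEZF1 showed the opposite order, being highest in stem cells, and VAX1 had reads in a minority of libraries. The plot of levels by library shows these patterns side by side.

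**Figure D1:**
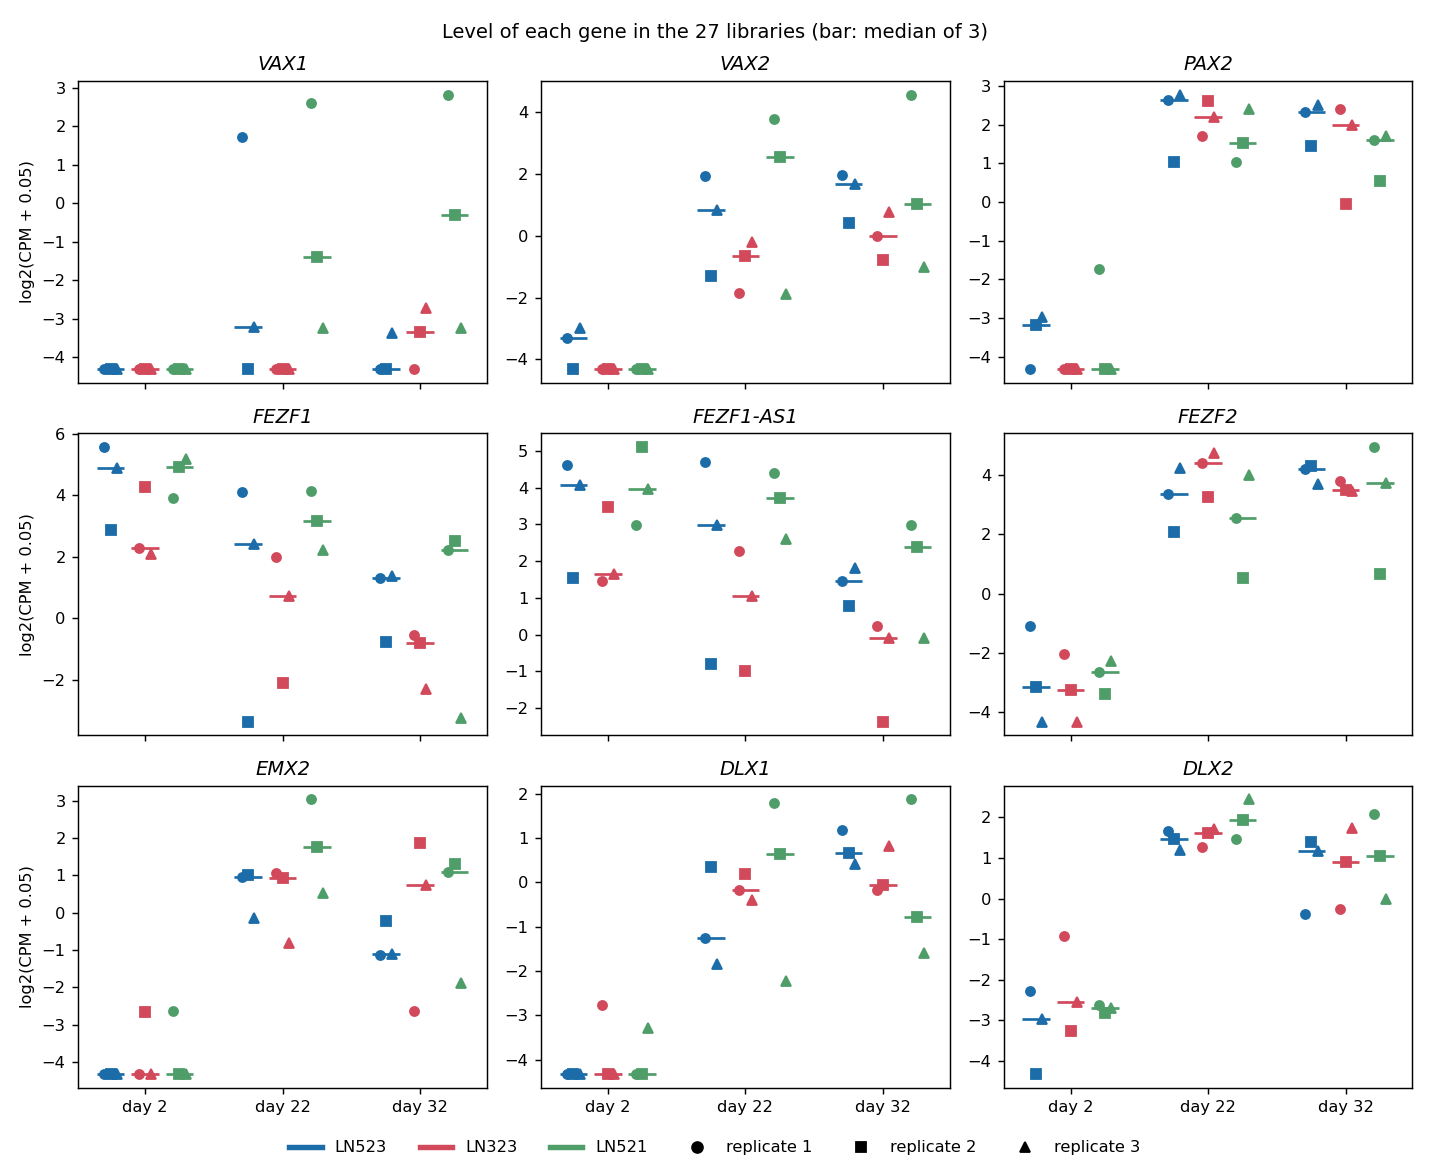
Level of each of the 9 genes, as log2 of CPM plus 0.05, in the 27 libraries, by day on the horizontal axis, coating by colour and replicate by marker, with the median of 3 libraries as a bar. VAX2, PAX2, FEZF2, EMX2, DLX1, and DLX2 sit near the bottom of their panels at day 2 and higher at days 22 and 32, while FEZF1 and FEZF1-AS1 are highest at day 2 and VAX1 exceeds 1 CPM in 3 libraries.

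The stalk and ventral cup factors come first. VAX1, a homeodomain factor needed for the optic stalk and chiasm, lies on chromosome 10 from 117128521 to 117138301 (GRCh38, minus strand). It had 0 reads in all 9 libraries of day 2, which allows up to 0.0310 CPM over the LN523 group, 0.0270 CPM over LN323, and 0.0256 CPM over LN521, for counting error only. At day 22 it stood at 3.22, 0, and 0.0572 CPM in LN523 replicates 1, 2, and 3, at 0 CPM in all 3 LN323 libraries, and at 6.08, 0.332, and 0.0549 CPM on LN521. At day 32 it stood at 0, 0, and 0.0461 CPM on LN523, at 0, 0.0479, and 0.101 CPM on LN323, and at 7.00, 0.763, and 0.0559 CPM on LN521. VAX1 had more than 3 reads in 6 of 27 libraries, and 80.1% of its 749 reads lay in LN521 libraries. The replicate 1 libraries of LN521 held 62.4% of its summed CPM at day 22 and 87.3% at day 32, so its group means rested on single libraries.

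VAX2, the homeodomain factor of the ventral retina, lies on chromosome 2 from 70900576 to 70965373 (plus strand). It had reads in 2 of 9 libraries at day 2 and in all 9 libraries at each later day. At day 22 it stood at 3.75, 0.357, and 1.74 CPM on LN523, at 0.228, 0.592, and 0.820 CPM on LN323, and at 13.8, 5.83, and 0.220 CPM on LN521. At day 32 it stood at 3.88, 1.28, and 3.18 CPM on LN523, at 0.951, 0.526, and 1.67 CPM on LN323, and at 23.7, 2.00, and 0.447 CPM on LN521. The LN521 libraries thus included both the highest and the lowest VAX2 level of each of these days. Of its exonic bases, 56.3% are also exonic in ATP6V1B1 on the same strand in GENCODE 44. The authors counted with a different annotation, whose overlap was not examined. In replicate 1 of LN521 at day 22, VAX2 stood at 13.8 CPM and at 50.8 TPM, the deposited level per transcript length. DLX2, of similar exonic length in GENCODE 44 (2971 against 2975 bases), stood there at 2.72 CPM and 3.88 TPM. The VAX2 model counted thus appears shorter than in GENCODE 44, and whether it held the shared bases was not tested. ATP6V1B1, a proton pump subunit, stood at 14.7 ± 15.2 CPM (SD, n = 3) on LN521 at day 22 and at 2.39 ± 1.16 CPM (SD, n = 3) on LN523.

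PAX2, a paired box factor of the optic stalk and its glia, lies on chromosome 10 from 100735396 to 100829944 (plus strand). It had the narrowest spread among these stalk genes. Its level was 4.98 ± 2.60 CPM on LN523, 4.60 ± 1.43 CPM on LN323, and 3.36 ± 1.68 CPM on LN521 at day 22 (SD, n = 3 each). At day 32 the levels were 4.42 ± 1.56, 3.38 ± 2.24, and 2.52 ± 0.97 CPM in the same order (SD, n = 3 each). At day 2 PAX2 had reads in 3 of 9 libraries, with 0.251 CPM as the highest level. PAX2 is also a kidney gene, and the 5 kidney markers summed to between 22.8 and 56.8 CPM at day 22 and to between 15.6 and 38.7 CPM at day 32, against 1.20 to 3.61 CPM at day 2, and their part in the PAX2 level was not tested.

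The forebrain factors differed in order of days. FEZF1, on chromosome 7 from 122301303 to 122310691 (minus strand), was already present in stem cells. At day 2 it stood at 47.1, 7.27, and 29.7 CPM on LN523, at 4.86, 19.3, and 4.23 CPM on LN323, and at 15.0, 30.1, and 36.3 CPM on LN521. The day 22 levels were 17.1, 0.0476, and 5.32 CPM on LN523, 3.96, 0.182, and 1.59 CPM on LN323, and 17.3, 8.84, and 4.64 CPM on LN521. At day 32 it stood at 2.41, 0.543, and 2.53 CPM on LN523, at 0.643, 0.526, and 0.152 CPM on LN323, and at 4.64, 5.69, and 0.0559 CPM on LN521. The median over 9 libraries was 19.3 CPM at day 2, 4.64 CPM at day 22, and 0.643 CPM at day 32.

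FEZF1-AS1, on chromosome 7 from 122303658 to 122310119 (plus strand), followed the same libraries. At day 2 it stood at 24.5, 2.86, and 16.7 CPM on LN523, at 2.70, 11.1, and 3.10 CPM on LN323, and at 7.94, 34.3, and 15.6 CPM on LN521. At day 22 it stood at 25.8, 0.523, and 7.81 CPM on LN523, at 4.76, 0.455, and 2.02 CPM on LN323, and at 21.1, 13.1, and 6.04 CPM on LN521. At day 32 the 9 libraries ran from 0.144 to 7.83 CPM with a median of 1.68 CPM. Within a group the replicates of both transcripts spread widely, and the LN523 libraries of day 22 held both the highest FEZF1-AS1 level of that day and one of the lowest.

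FEZF2, on chromosome 3 from 62369681 to 62374324 (minus strand), is a determinant of corticospinal neurons and an early forebrain factor. It was at most 0.417 CPM at day 2. The day 22 levels were 10.1, 4.19, and 18.8 CPM on LN523, 20.9, 9.52, and 26.4 CPM on LN323, and 5.85, 1.37, and 15.8 CPM on LN521. At day 32 it stood at 18.3, 19.7, and 13.0 CPM on LN523, at 13.7, 11.3, and 10.9 CPM on LN323, and at 30.6, 1.53, and 13.1 CPM on LN521. The LN521 group of day 32 spanned the other 2 groups.

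EMX2, on chromosome 10 from 117542445 to 117549546 (plus strand), had 0 reads in 7 of 9 libraries of day 2. At day 22 it stood at 1.90, 1.95, and 0.858 CPM on LN523, at 2.06, 1.87, and 0.515 CPM on LN323, and at 8.12, 3.36, and 1.40 CPM on LN521. Its median over 9 libraries was 1.90 CPM at day 22 and 0.814 CPM at day 32. DLX1 and DLX2 face each other on chromosome 2 with start sites 17393 bases apart. DLX1 ran from 0.165 to 3.43 CPM at day 22, with a median of 0.837 CPM, and from 0.280 to 3.60 CPM at day 32, with a median of 1.29 CPM. DLX2 ran from 2.23 to 5.38 CPM at day 22, with a median of 3.03 CPM, and from 0.725 to 4.16 CPM at day 32, with a median of 2.02 CPM. At day 2 DLX1 had reads in 2 of 9 libraries and DLX2 in 8 of 9, with at most 0.481 CPM.

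Between genes, levels were compared per transcript length by the deposited TPM values, which sum to 1000000 per library. At day 2 the median TPM over 9 libraries was 26.0 for FEZF1 and 11.2 for FEZF1-AS1, while it was at most 0.128 for each other member. At day 22 FEZF2 had the highest median level, 19.5 TPM, followed by FEZF1-AS1 at 7.48 TPM, FEZF1 at 7.29 TPM, and DLX2 at 4.20 TPM. At day 32 FEZF2 stood at 23.6 TPM and VAX2 at 5.80 TPM, whereas VAX1 had a median of 0.0345 TPM. Ordered by mean TPM, neighbouring groups of a gene overlapped at nearly every step. No neighbouring pair was separated by all of its libraries for VAX1, FEZF1, or FEZF1-AS1, and 1 of 8 pairs was for each other gene.

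**Figure D2:**
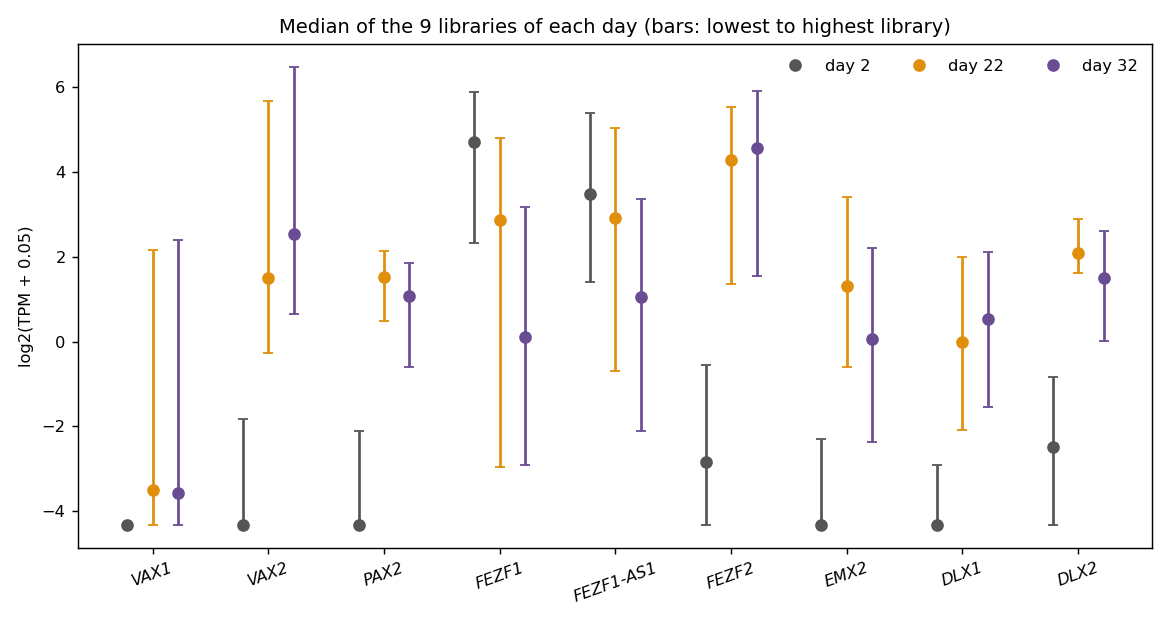
Median level of each gene over the 9 libraries of a day, as log2 of TPM plus 0.05, with bars from the lowest to the highest library and days by colour. FEZF1 and FEZF1-AS1 have their highest medians at day 2, and FEZF2 holds the highest median at days 22 and 32.

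Several members lie close together. FEZF1 and FEZF1-AS1 overlap on opposite strands, with start sites 1092 bases apart, and 26.6% of the exonic bases of FEZF1 and 17.5% of those of FEZF1-AS1 are shared. Since the strand setting of the counting is not given in the sources used here, reads from the shared bases cannot be told apart. VAX1 and EMX2 start sites lie 404476 bases apart on chromosome 10. The 250 bases before a start site (RefSeq, GRCh38.p14) were available for 8 start sites of 6 members and were searched on both strands for TAATTA and CAATTA, the cores bound by many homeodomain proteins. The FEZF1 window, which lies inside FEZF1-AS1, and the EMX2 window are shown because each held a match, marked in capitals, and because FEZF1 was highest and EMX2 lowest at day 2. They cover chr7:122304751-122305000 on the minus strand and chr10:117542496-117542745 on the plus strand.
FEZF1: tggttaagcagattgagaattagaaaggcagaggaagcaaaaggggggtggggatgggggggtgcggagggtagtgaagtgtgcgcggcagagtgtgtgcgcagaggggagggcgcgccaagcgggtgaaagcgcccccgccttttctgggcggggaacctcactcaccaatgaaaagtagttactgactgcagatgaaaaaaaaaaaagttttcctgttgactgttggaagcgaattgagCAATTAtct
EMX2: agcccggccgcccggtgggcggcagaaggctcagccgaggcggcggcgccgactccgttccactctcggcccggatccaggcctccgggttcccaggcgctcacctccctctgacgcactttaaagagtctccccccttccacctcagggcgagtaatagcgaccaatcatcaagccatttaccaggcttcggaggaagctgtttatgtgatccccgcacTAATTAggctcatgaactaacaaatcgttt
TAATTA was found at 1 of the 8 start sites and in 4.35% of 35116 promoter windows, and CAATTA at 2 overlapping FEZF1 windows and in 6.70% of all windows. These matches describe the letters only.

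The first comparison asked what changed as stem cells became neural progenitors. All 27 libraries were fitted together in edgeR's quasi-likelihood test with lane as a block, and a gene was called at a Benjamini-Hochberg adjusted p under 0.05 over 44852 genes. Because VAX1 and FEZF1-AS1 were chosen on the day 22 LN523 and LN323 levels, comparisons that use those libraries give these 2 genes as values without a test and count the other 7. From day 2 to day 22, 6 of 7 members rose on LN523, 6 of 7 on LN323, and 7 of 9 on LN521, against 11.5%, 11.8%, and 10.8% of all genes called higher. No member fell on LN523 or LN521, where 10.2% and 8.09% of all genes were called lower, and FEZF1 fell on LN323, where the share was 10.9%. The counted members' median log2 fold change was 5.30 on LN523, 4.85 on LN323, and 5.97 on LN521 with genes at 0 reads in one group set to their bound, while that of all genes was 0.02, 0.02, and -0.02. FEZF1 shares exonic bases with FEZF1-AS1, so its values in those libraries are not fully independent of the choice either. VAX2 levels followed those of VAX1 (Pearson's r = 0.811 over the 18 libraries of days 22 and 32), so the same limit holds for VAX2. Markers of other cell types also differed between these days. The 6 pigment epithelium markers summed to 122 to 231 CPM at day 2 and 683 to 2153 CPM at day 22, with TYR or RPE65 at 0 in each day 2 group. The 7 amacrine, horizontal, and ganglion cell markers summed to 9.56 to 15.4 CPM at day 2, 37.7 to 134 CPM at day 22, and 92.8 to 342 CPM at day 32. Hindbrain markers summed to 3.09 to 8.98 CPM and 90.1 to 223 CPM at days 2 and 22, surface ectoderm markers to 352 to 572 CPM and 356 to 894 CPM, and neural crest markers to 196 to 251 CPM and 32.4 to 150 CPM. The part of these markers in the members' change was not tested.

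VAX2, PAX2, FEZF2, EMX2, DLX1, and DLX2 rose on all 3 coatings, with the lowest day 22 library above the highest day 2 library in each case. The share of all genes separated in this way is not given here, so the separation describes these genes only. FEZF2 changed by a log2 fold change of 5.97 (SE 0.72, edgeR adjusted p = 2.81e-09) on LN523, 7.73 (SE 0.79, adjusted p = 1.80e-11) on LN323, and 5.99 (SE 0.74, adjusted p = 5.97e-09) on LN521. DLX2 rose by 5.04 (SE 0.79), 3.73 (SE 0.71), and 5.23 (SE 0.77) on the log2 scale in the same order, with edgeR adjusted p-values of 1.12e-06, 3.74e-05, and 3.42e-07. PAX2 rose by 6.62 (SE 0.86, edgeR adjusted p = 2.16e-08) on LN523 and by 5.46 (SE 0.79, adjusted p = 2.76e-07) on LN521, and against 0 reads on LN323 it was at least 170-fold higher (adjusted p = 2.30e-10). VAX2 rose by 5.30 (SE 1.11, edgeR adjusted p = 1.90e-04) on LN523, and it was at least 20.2-fold higher on LN323 and 258-fold higher on LN521, where day 2 had no reads. Bounds here set the mean CPM against a floor of 3 reads over the group of 3 libraries, on the same TMM scale.

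EMX2 was at least 50.6-fold higher on LN523 (edgeR adjusted p = 2.26e-06), and its log2 fold change was 5.27 (SE 1.02, adjusted p = 5.06e-05) on LN323 and 6.78 (SE 1.04, adjusted p = 9.14e-07) on LN521. DLX1 was at least 19.5-fold higher on LN523 (adjusted p = 9.85e-05 in edgeR) and rose by 4.85 (SE 1.06) on LN323 and 5.97 (SE 1.15) on LN521 on the log2 scale. These calls of the 6 genes held when each of the 6 libraries compared was left out in turn. In limma on log2(TPM + 1), DLX1 and VAX2 lost their calls on LN523 and on LN323, with adjusted p-values of 0.287 and 0.0832 on LN523 and 0.132 and 0.358 on LN323.

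VAX1 was called higher on LN521 (edgeR adjusted p = 6.19e-04), where its day 22 mean was at least 84.1-fold above the floor of day 2. That mean rested on replicate 1, with 268 of the 284 reads, while replicate 3 had 2 reads. On LN523 its day 22 mean was at least 35.2-fold above the floor of day 2, and replicate 1 had 139 of the 141 reads. On LN521 the edgeR call was lost without replicate 1 of day 2 (adjusted p = 0.0562) and in the robust fit (0.110). It was also lost in DESeq2 (adjusted p = 0.0541) and in each limma fit on TPM (0.0910 to 0.178). On LN323 VAX1 had no reads at either day.

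FEZF1 had negative fold changes on all 3 coatings. It fell by 2.74 on the log2 scale on LN323 (SE 0.88, edgeR adjusted p = 0.0155), where every day 22 library lay below every day 2 library. Its log2 fold change was -2.11 (SE 0.80, adjusted p = 0.0526 in edgeR) on LN523, lower in 3 of 3 lanes, and -1.74 (SE 0.80, adjusted p = 0.139) on LN521, lower in 2 of 3 lanes. The LN323 call was lost without LN323 replicate 2 of day 2 (log2 fold change -1.34, adjusted p = 0.293), without replicate 2 or 3 of day 22 (0.132 and 0.0507), and in DESeq2 (0.0620). With only the groups compared, edgeR called FEZF1 lower on LN523 (log2 fold change -2.87, adjusted p = 3.70e-05) and on LN521 (-1.52, adjusted p = 1.71e-06), and on LN523 it was also called without replicate 2 of day 2 (adjusted p = 0.0287) or replicate 1 of day 22 (0.0200). FEZF1-AS1 had log2 fold changes of -0.56 (SE 0.68) and -1.69 (SE 0.75) on LN523 and LN323, and of -0.85 (SE 0.69, edgeR adjusted p = 0.514) on LN521.

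**Figure D3:**
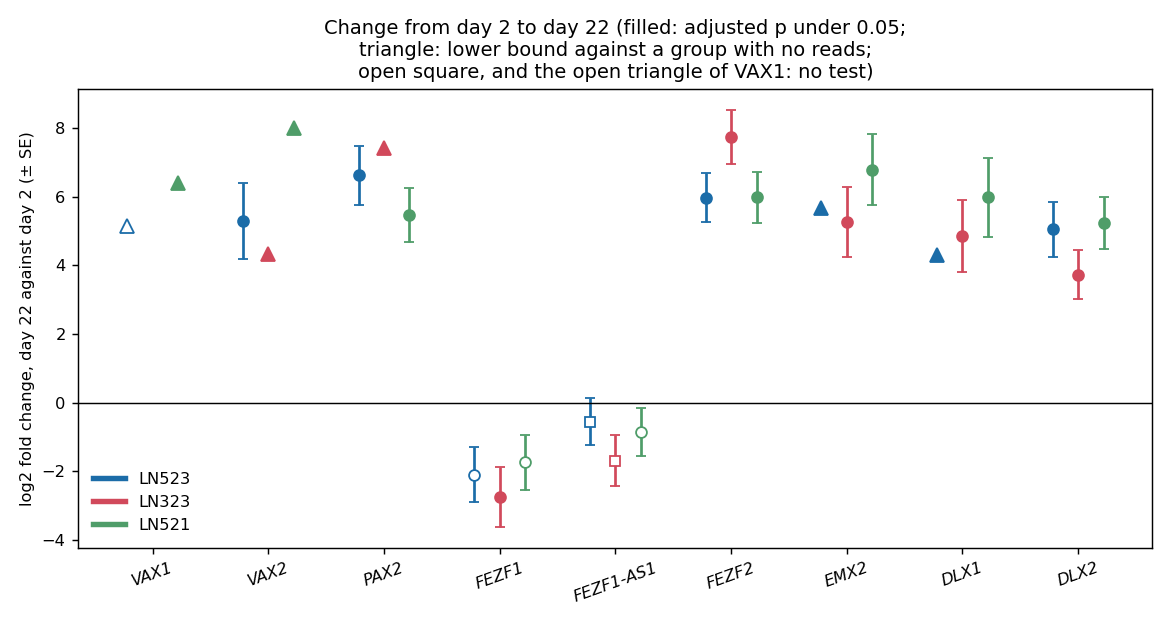
Log2 fold change from day 2 to day 22 of each gene on LN523, LN323, and LN521, with its standard error, from edgeR; filled symbols passed an adjusted p of 0.05, triangles are lower bounds where a group had no reads, and open squares and the open VAX1 triangle are values without a test. Genes other than FEZF1 and FEZF1-AS1 lie above 3, and FEZF1 and FEZF1-AS1 lie below 0.

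FEZF1 had the more negative fold change of the overlapping pair on each coating. The ratio of FEZF1-AS1 to FEZF1 reads was therefore computed per library with 0.5 added to each count. This measure was added after that difference had been seen and uses the libraries that chose FEZF1-AS1, so it is a description with no test. At day 2 the ratio ran from 0.395 to 1.14 with a median of 0.556, and it exceeded 1 in 1 of 9 libraries, LN521 replicate 2. At day 22 it ran from 1.20 to 9.00 with a median of 1.47, and it exceeded 1 in 9 of 9 libraries. Every day 22 library lay above every day 2 library. The mean log2 ratio was -0.79 ± 0.45 at day 2 and 0.82 ± 0.93 at day 22 (SD, n = 9 each), a difference of 1.62, or 3.07-fold. The day 22 ratio was higher in 9 of 9 pairs of the same coating and lane. At day 32 the ratio ran from 0.289 to 13.0 with a median of 1.68 and exceeded 1 in 7 of 9 libraries, and the difference from day 2 was 1.68. Days 22 and 32 differed by 0.06. The difference between days 2 and 22 was 1.22 over the 7 and 9 libraries of days 22 and 2 with at least 20 reads of both genes, and ran from 1.19 to 1.90 without each coating in turn.

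**Figure D4:**
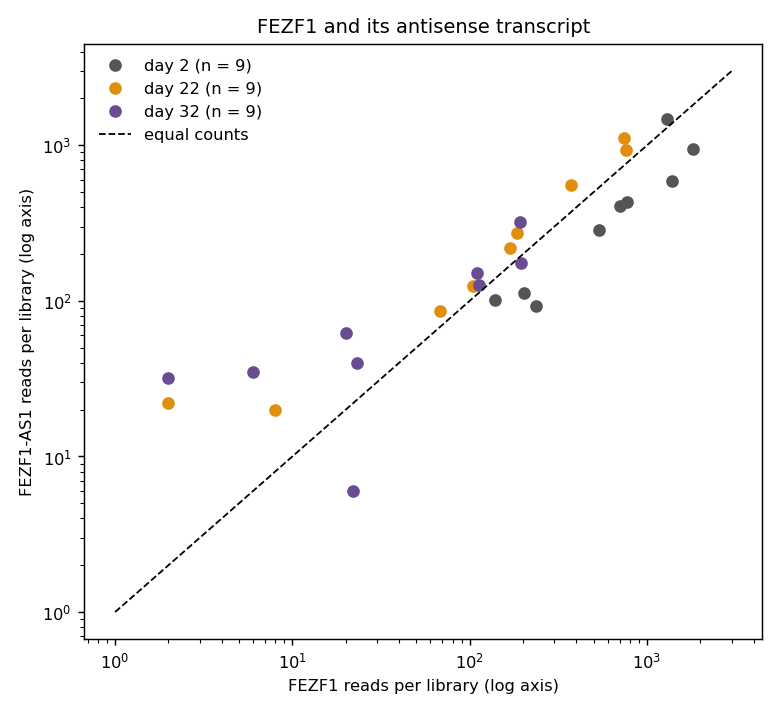
Reads of FEZF1-AS1 against reads of FEZF1 in each of the 27 libraries, both on log axes, coloured by day, with a dashed line of equal counts. All 9 day 22 libraries lie above the line and 8 of 9 day 2 libraries lie below it.

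From day 22 to day 32 no member was called on any coating in edgeR, where 0.381% of all genes were called on LN523, 0.0424% on LN323, and 0.268% on LN521. DESeq2 also called 0 members, and 1, 1, and 2 members had an unadjusted p under 0.05 in edgeR, among 1963, 1280, and 2763 of 44852 genes. These were FEZF1 on LN523 and LN323 and FEZF1-AS1 and EMX2 on LN521. FEZF1-AS1 had log2 fold changes of -1.73 (SE 0.72) and -1.61 (SE 0.74) on LN523 and LN323, and of -1.56 (SE 0.70, edgeR adjusted p = 0.696) on LN521. EMX2 had a log2 fold change of -1.60 (SE 0.75, edgeR adjusted p = 0.743) on LN521, lower in 3 of 3 lanes. FEZF2, by contrast, had group means of 11.0 and 17.0 CPM on LN523, 18.9 and 12.0 CPM on LN323, and 7.68 and 15.1 CPM on LN521 at days 22 and 32. In the test of whether the day 32 minus day 22 change differed from that on LN521, 0 members and 0.00% of all genes were called for LN523 and for LN323. At an unadjusted p under 0.05 edgeR found 0 and 1 of the 7 members counted and 2142 and 1540 of all genes.

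The next comparisons set the coatings against each other within a day, with the 9 libraries of that day fitted together. At day 22, LN523 and LN323 differed as follows, given without a test because this contrast had chosen VAX1 and FEZF1-AS1. FEZF1-AS1 averaged 11.4 CPM on LN523 and 2.41 CPM on LN323, with the LN523 library above its LN323 counterpart in 3 of 3 lanes. FEZF1 averaged 7.50 and 1.91 CPM, VAX1 1.09 and 0 CPM, and VAX2 1.95 and 0.547 CPM, each higher on LN523 in 2 of 3 lanes. FEZF2 averaged 11.0 and 18.9 CPM and was lower on LN523 in 3 of 3 lanes. PAX2 averaged 4.98 and 4.60 CPM, EMX2 1.57 and 1.48 CPM, DLX1 0.604 and 0.878 CPM, and DLX2 2.68 and 2.87 CPM. The groups overlapped for all 9 genes.

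Against LN521 at day 22, 0 of the 7 members counted were called for LN523 and 3 for LN323, where 0.572% and 0.616% of all genes were called. Both comparisons share the LN521 libraries. On LN323, FEZF1 had a log2 fold change of -3.38 (SE 0.53, edgeR adjusted p = 7.15e-06), with all LN323 libraries below all LN521 libraries. FEZF1 shares exonic bases with FEZF1-AS1, which was chosen on these LN323 libraries, and the pair had r = 0.96 over 18 libraries. The FEZF1 call, 1 of the 3, is therefore not independent of that choice, and no conclusion is drawn from it. VAX2 had a log2 fold change of -2.99 (SE 0.62, edgeR adjusted p = 0.00223), lower in 2 of 3 lanes. It had r = 0.811 over the same 18 libraries with VAX1, which was also chosen on these LN323 libraries. The VAX2 call is thus not fully independent of the choice either, and no conclusion is drawn from it. FEZF2 was higher by 1.73 (SE 0.29, edgeR adjusted p = 3.68e-05) in 3 of 3 lanes, with overlapping groups. FEZF1-AS1, at 2.41 CPM on LN323 and 13.4 CPM on LN521, and VAX1, at 0 and 2.16 CPM, are given without a test. Without the replicate block, 0 of the 3 were called. The day 22 fit took its error from a spread shared over genes, and the spread of the gene itself was 10.4 times that value for FEZF1, 8.79 for VAX2, and 2.22 for FEZF2, against a median of 0.481 over all genes. With each gene's own spread 0 of the 3 were called, DESeq2 called FEZF2 alone, and leaving out LN323 replicate 1, 2, or 3 left 0, 0, or 1.

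For LN523 against LN521 at day 22, 5 of the 7 members counted and 1762 of 38609 genes had an unadjusted p under 0.05 in edgeR, and 0 members were called by edgeR or DESeq2. VAX2, at 1.95 and 6.61 CPM, had a log2 fold change of -1.69 (SE 0.58, edgeR adjusted p = 0.325), FEZF1 of -1.72 (SE 0.53, adjusted p = 0.176), and EMX2 of -1.22 (SE 0.45, adjusted p = 0.457). The limits on the FEZF1 and VAX2 tests given for LN323 hold here too, since the LN523 libraries also entered the choice of FEZF1-AS1 and VAX1. FEZF2 had 0.79 (SE 0.28, adjusted p = 0.384 in edgeR), and each of the 3 lanes had the higher level on LN523. Without LN521 replicate 3 the number called was 3, and without LN521 replicate 1 it was 1. The shares of all genes called in these refits are not given here, so the counts describe the members only.

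The sum of the pluripotency markers, most of it LIN28A, moved with part of this pattern. At day 22 their summed level was 105 to 370 CPM on LN521, 43.1 to 58.9 CPM on LN323, and 23.7 to 158 CPM on LN523, and none of the 5 was at 0 in a group. LIN28A alone averaged 157, 48.3, and 76.5 CPM in the same order. POU5F1 ran from 1.33 to 73.8 CPM on LN521 and was at most 2.13 CPM on LN323 and 2.26 CPM on LN523. LN521 replicate 1, LN523 replicate 1, and LN521 replicate 2 had the highest sums (370, 158, and 153 CPM), and the same 3 libraries had the highest VAX1, FEZF1, and FEZF1-AS1 levels. LN523 replicate 2, with the lowest sum (23.7 CPM), had the lowest FEZF1 level (0.0476 CPM). The part of these markers in the differences between coatings was not tested. Midbrain markers stood at 2.96 to 17.0 CPM and hindbrain markers at 90.1 to 223 CPM over all day 22 libraries.

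At day 32 no member was called between coatings in edgeR, and the share of all genes called was 0.00% for LN523 against LN323, 0.0609% for LN523 against LN521, and 0.117% for LN323 against LN521. At an unadjusted p under 0.05 the numbers of members were 2, 1, and 4, among 747, 2034, and 1762 genes, and DESeq2 called 0, 0, and 1. FEZF1-AS1 averaged 2.62 CPM on LN523, 0.717 CPM on LN323, and 4.63 CPM on LN521. Its log2 fold change was 2.02 (SE 0.63, edgeR adjusted p = 1.00) for LN523 against LN323, with no overlap of libraries, and -2.83 (SE 0.68, adjusted p = 0.151) for LN323 against LN521. FEZF1 had 2.51 (SE 0.89, adjusted p = 1.00) and -2.77 (SE 0.86, adjusted p = 0.429) in the same edgeR comparisons. For VAX1 the log2 fold change of LN523 against LN521 was -6.45 (SE 1.44, edgeR adjusted p = 0.112), with 2 reads in all on LN523 and 316 on LN521. Its level was lower on LN523 in 3 of 3 lanes, but in lane 3 both libraries had 2 reads (0.0461 and 0.0559 CPM). LN521 replicate 1 held 288 of the 316 reads. Without LN521 replicate 3, 4 members were called for LN323 against LN521. The share of all genes called in that refit is not given here, so this count describes the members only.

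At day 2, before induction, the only members above 0.5 CPM were FEZF1 and FEZF1-AS1. Both were called higher on LN523 than on LN323 and lower on LN323 than on LN521, where 0.233% and 2.50% of all genes were called, and neither was called between LN523 and LN521, where 0.624% were called and 0 members had an unadjusted p under 0.05. FEZF1 had a log2 fold change of 1.78 (SE 0.28, edgeR adjusted p = 3.13e-07) for LN523 against LN323, higher in 2 of 3 lanes, and -1.70 (SE 0.25, adjusted p = 1.74e-08) for LN323 against LN521, lower in 3 of 3 lanes. FEZF1-AS1 had 1.83 (SE 0.30, edgeR adjusted p = 3.58e-06) and -1.91 (SE 0.28, adjusted p = 4.88e-09). All groups overlapped. The spread between libraries was 20.0 times the value used in the test for FEZF1 and 18.2 times for FEZF1-AS1, and with each gene's own spread neither was called. DESeq2 called neither of them in any day 2 comparison. It called EMX2 and DLX1 lower on LN523 than on LN323 and on LN521, where LN523 had 0 reads of each and the other groups had 2 to 4 reads, all in 1 library. Leaving out LN323 replicate 1 or LN523 replicate 1 left 0 members called between LN523 and LN323. In lane 2 FEZF1 stood at 7.27 CPM on LN523 and 19.3 CPM on LN323, the reverse of lanes 1 and 3.

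**Figure D5:**
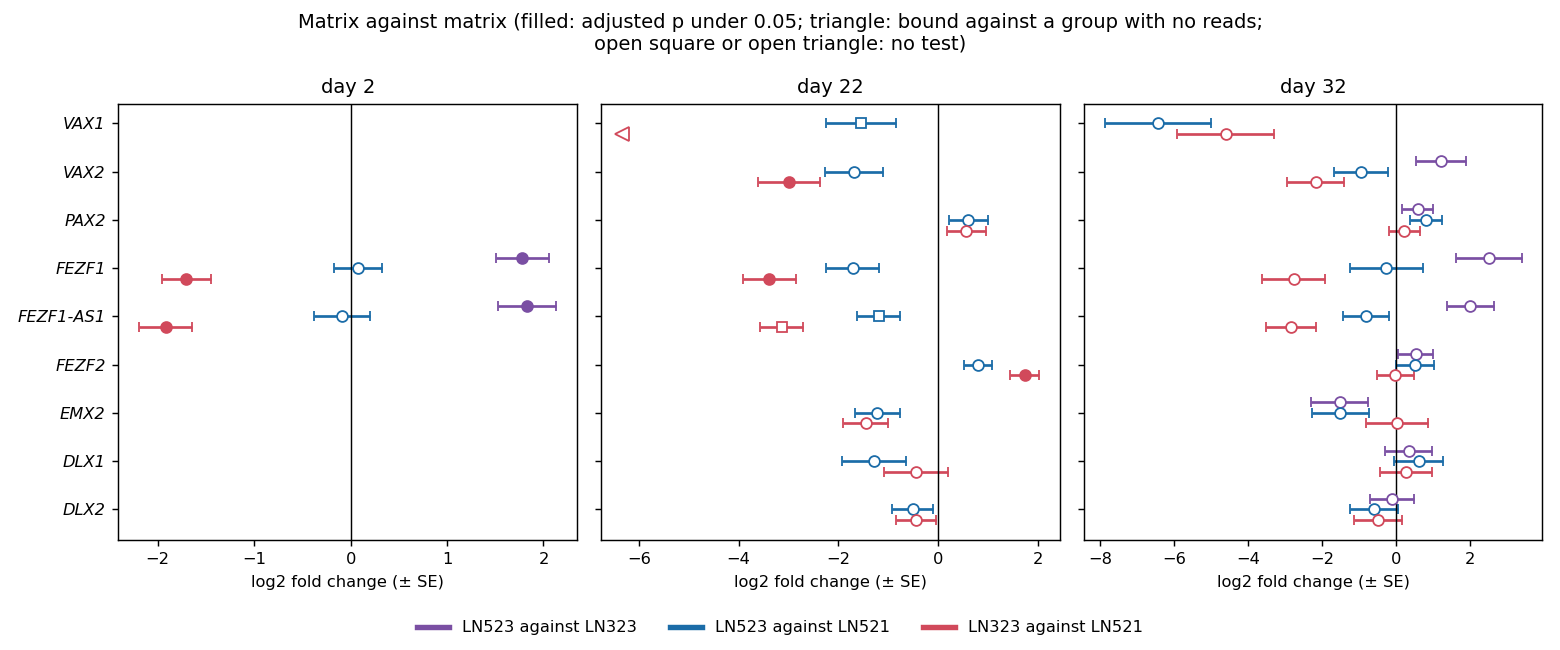
Log2 fold change between coatings at days 2, 22, and 32, with its standard error, from edgeR for genes at 0.5 CPM or more in one of the groups compared; filled symbols passed an adjusted p of 0.05, the triangle is a bound against a group with no reads, and open squares and the open triangle at day 22 are values without a test. LN523 against LN323 at day 22 is not plotted, and filled symbols appear for FEZF1 and FEZF1-AS1 at day 2 and for 3 genes of LN323 against LN521 at day 22.

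A wider list of optic stalk and ventral eye genes also held eye field and dorsal eye genes, such as SIX6 and TBX2. Most of its genes rose, and the counts below do not separate these classes. Of 26 listed genes, 22 rose and 1 fell on LN523 from day 2 to day 22, and 21 rose and 1 fell on each of LN323 and LN521, with median log2 fold changes of 3.77, 3.66, and 4.01. The shares of all genes were 11.5%, 11.8%, and 10.8% called higher and 10.2%, 10.9%, and 8.09% called lower in that order. SIX6, an eye field factor, rose from 0.321 ± 0.142 to 228 ± 123 CPM on LN523 and from 0.247 ± 0.141 to 160 ± 16.7 CPM on LN521 (SD, n = 3). NR2F2, a nuclear receptor, rose from 0.0503 ± 0.0483 to 69.4 ± 36.7 CPM on LN323, and TBX2, a dorsal eye factor, from 0.668 ± 0.250 to 669 ± 284 CPM. The gene that fell was GLI1, a target of Hedgehog signalling, with log2 fold changes of -3.98 (SE 0.78), -4.47 (SE 0.78), and -2.82 (SE 0.73) on LN523, LN323, and LN521. In the same list edgeR called 0 genes from day 22 to day 32 on any coating, with 6, 3, and 5 at an unadjusted p under 0.05, and DESeq2 called 0, 0, and 1. At day 22, 3 of 26 were higher and 1 lower on LN523 than on LN521, and 5 were higher and 1 lower on LN323. Over all genes, 0.572% and 0.616% were called in either direction. CYP1B1, a retinoid-metabolising cytochrome, was 508 ± 274 CPM on LN523, 790 ± 306 CPM on LN323, and 289 ± 162 CPM on LN521 (SD, n = 3), with log2 fold changes against LN521 of 0.86 (SE 0.18) and 1.61 (SE 0.18).

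Of 30 telencephalon and diencephalon genes, 13 rose and 6 fell on LN523, 15 rose and 5 fell on LN323, and 17 rose and 5 fell on LN521, with medians of 2.28, 2.39, and 2.53 when genes without reads in a group were set to their bound. Among all genes, 11.5%, 11.8%, and 10.8% were called higher and 10.2%, 10.9%, and 8.09% lower on these coatings. DMRT3, a cortical factor, was at least 83.7-fold higher on LN523 and 171-fold higher on LN521. HESX1, a factor of the early forebrain, fell by 3.27 (SE 0.50) on LN323 and fell by 2.395 (SE 0.49) on LN521, LHX6, a factor of ventral interneurons, fell by 2.89 (SE 0.76) and 2.45 (SE 0.75), and LHX5 fell by 3.87 (SE 1.05) on LN523. At day 22, edgeR called 5 of 28 lower and 0 higher on LN523 than on LN521, and the counts were equal for LN323, with 11 and 8 at an unadjusted p under 0.05 and 3 and 2 called by DESeq2. In these comparisons edgeR called 0.572% and 0.616% of all genes in either direction. LHX5, at 0.205 ± 0.224 CPM on LN523 and 2.80 ± 4.22 CPM on LN521 (SD, n = 3), was among the genes called lower.

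Partner transcripts and neighbours of the members were followed where 14 of 16 were tested. From day 2 to day 22, 3 rose and 2 fell on LN523, and 4 rose and 2 fell on each other coating, with median log2 fold changes of 0.08, 0.08, and 0.45. Of all genes, 11.5%, 11.8%, and 10.8% were called higher on LN523, LN323, and LN521, and 10.2%, 10.9%, and 8.09% lower. EMX2OS, antisense to EMX2 with 10.7% of the exonic bases of EMX2 shared, rose by 6.06 (SE 1.20) on LN523, 5.37 (SE 1.05) on LN323, and 6.05 (SE 1.01) on LN521 on the log2 scale. AASS, near FEZF1, fell by 3.88 (SE 0.24) on LN523, 3.85 (SE 0.24) on LN323, and 3.95 (SE 0.24) on LN521. SLC18A2, near EMX2, fell by 3.89 (SE 0.59), 3.56 (SE 0.58), and 3.69 (SE 0.58) and then rose by 2.93 (SE 0.57, edgeR adjusted p = 0.00334) on LN523 from day 22 to day 32.

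Over the 18 libraries of days 22 and 32, the genes with the most similar profile to each member were found among 17071 genes by Pearson's r of log2(CPM + 0.5). These are descriptions over libraries that share lanes and coatings. FEZF1 and FEZF1-AS1 were most like each other (r = 0.960), and EMX2 was most like EMX2OS (0.892). VAX2 was most like ATP6V1B1 (0.890) and CD207 (0.885). It shares exonic bases with ATP6V1B1 in GENCODE 44, which is not the annotation used for the counts. VAX1 was most like GRIP2 (0.907), SOX1 (0.902), and DUSP4 (0.892), and FEZF1-AS1 was next most like SOX3 (0.912). PAX2 was most like GRB10 (0.899), DLX1 like B4GALNT1 (0.870), FEZF2 like SHD (0.819), and DLX2 like SLC7A5 (0.787). Among the members, VAX1 and VAX2 had r = 0.811.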

How the data were processed

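Per the labels and the methods of the study, the authors sequenced ribosomal-depleted total RNA (TruSeq stranded, paired reads), aligned it with STAR 2.5.2b to GRCh38 with Ensembl 79, and counted genes with featureCounts 1.5.1, leaving out ribosomal RNA and mitochondrial genes. The strand setting and the handling of read pairs are not given in the sources used here. The deposited values are read counts, of which 68.8% of the non-zero ones were even, and TPM values, which the authors scaled to 1000000 per library.

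Here genes whose counts summed to more than 1 entered edgeR's quasi-likelihood test (edgeR 4.0.16, R 4.3.3), after TMM normalization and with lane as the replicate block. Days were compared over all 27 libraries and coatings over the 9 libraries of a day. The labels give lane as shared by same-numbered libraries, whose deviations from group means correlated between coatings with r from -0.25 to 0.805 at day 22, -0.303 to 0.727 at day 32, and -0.647 to 0.328 at day 2. The alternatives were RLE normalization, filterByExpr, no replicate block, DESeq2 1.42.0, limma 3.58.1 on log2-transformed TPM (pseudocount 1 or 0.1), other sets of libraries, each library left out, and, chosen after seeing the data, a robust fit and the spread of each gene alone. The fits were tested on simulated data.

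The members and gene lists were chosen with earlier results of these data known. A fold change is given only at a mean of 0.5 CPM or more in one group. List genes were named as the 2 largest called changes in each direction that kept their sign in 3 lanes and reached 1 CPM in a group, and profile neighbours as the 3 with the highest r. ATP6V1B1 was added after its values were seen. A gene that the rule names is not reported here.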

Additional observations from a re-analysis of the deposited data

How the results depend on the processing

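The numbers of members called from day 2 to day 22 were 6 of 7 on LN523, 7 of 7 on LN323, and 7 of 9 on LN521, and each ran from 6 to 7 without single libraries. Limma on log2(TPM + 1) called 4 on LN323, also with at least 1 TPM. From day 22 to day 32 the 0 calls became 2 on LN521 with only the groups compared. At day 32 the 0 calls became 3 (LN523 against LN323) and 1 (LN523 against LN521) with only the groups compared and 1 (LN323 against LN521) in DESeq2. Against LN521 they ran from 0 to 2 for LN523 and 0 to 4 for LN323 without single libraries. Without LN521 replicate 1 or 3 these counts were 2 and 1 for LN523 and 3 and 4 for LN323, which had 1 without LN323 replicate 1. At day 22 the 3 calls of LN323 against LN521 became 0 without the replicate block, with filterByExpr, in each of 3 limma fits, with all 27 libraries, and with the spread of each gene alone, 1 in the robust fit and in DESeq2, and 0 to 3 without single libraries. LN523 against LN521 ranged from 0 to 3. At day 2 the 2 calls of LN523 against LN323 became 0 with filterByExpr, the spread of each gene alone, limma, all 27 libraries, and only the groups compared, and 0 to 2 without single libraries (1 without LN323 replicate 3). The 2 calls of LN323 against LN521 became 0 with filterByExpr, the spread of each gene alone, DESeq2, limma, and all 27 libraries, and 1 to 2 without single libraries (1 without LN521 replicate 2), and LN523 against LN521 had 2 in DESeq2. The replicate block changed no other count of members by more than 1.5 times. The shares of all genes called in these alternative fits are not given here, so the counts describe the members only. The causes were not tested. The log2 fold change of FEZF1-AS1 for LN523 against LN521 at day 22 ran from -2.08 to 0.11 without single libraries, the latter without LN521 replicate 2, and that of day 22 against day 2 on LN523 from -1.41 to 0.16, the latter without LN523 replicate 2 of day 22. With 3 libraries a group, low counts of VAX1, DLX1, and EMX2 limit the precision.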
